A study of Mus musculus with 25 samples.

Results

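Lin28b, Hmga2, Igf2bp1, Igf2bp2, Igf2bp3 and Sox17 are 6 genes of the programme that is active in fetal blood stem cells and mostly shut in adult ones, and their DNA methylation is described here across mouse haematopoietic stem cells (HSCs) of 12 groups. The members are the CpGs with at least 5 reads in a library inside 1 window per gene on mm9: chr10:45090001-45215000 for Lin28b, chr10:119790001-119920000 for Hmga2, chr11:95810001-95875000 for Igf2bp1, chr16:22055001-22170000 for Igf2bp2, chr6:49030001-49170000 for Igf2bp3 and chr1:4475001-4495000 for Sox17. They number 1071 of 1587545 CpGs: 132 in Lin28b, 209 in Hmga2, 266 in Igf2bp1, 177 in Igf2bp2, 163 in Igf2bp3 and 124 in Sox17. Of these, 33, 90, 93, 69, 62 and 58 had at least 5 reads in all 25 libraries, 405 of the 588138 CpGs covered that way in all.

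The study compared HSC methylation over development and ageing and after forced proliferation, in C57Bl/6 mice. All 25 libraries were made by reduced representation bisulfite sequencing (RRBS), which reads CpG-rich restriction fragments after unmethylated cytosines are converted. Bone marrow gave HSCs recovered after transplantation of 10 (n = 2), 50 (n = 1) or 500 (n = 3) old cells, and of 10 (n = 3), 50 (n = 1) or 500 (n = 1) young cells. A drug that kills dividing cells, 5-fluorouracil (5-FU), defined 3 further groups of 3.5 plus 6 months of age, given 0 doses (n = 3), 2 doses (n = 3) or 4 doses (n = 2). Untreated bone marrow came from old mice of 25 months (n = 2) and young mice of 3.5 months (n = 2). Fetal HSCs came from fetal liver at embryonic day e14.5 (n = 2), so stage and tissue cannot be told apart in any comparison with fetal cells. The sources used here give no sorting gate, sex, recipient, time after transplantation or number of pooled animals, and RRBS gives no RNA levels with which to check the cell type. Nothing says that replicates came from separate animals, so p-values measure only the spread between these libraries, which may be technical.

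Lin28b is an RNA-binding protein that blocks the maturation of let-7 microRNAs, and in mouse HSCs it favours the fetal type of blood formation. Hmga2, a chromatin architectural protein that supports self-renewal of fetal HSCs, is held down by let-7 in adult cells. Igf2bp1, Igf2bp2 and Igf2bp3 bind messenger RNAs, that of the growth factor Igf2 among them, and control their stability and translation. Sox17 is a transcription factor that fetal and neonatal HSCs need for their maintenance. Methylation of CpG-rich promoters goes with stable silencing, while most CpG-rich starts stay unmethylated whether or not the gene is transcribed. In a population of cells, a level between 0 and full methylation cannot say whether few cells are methylated on both alleles or more cells on one.

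The promoters of Igf2bp2 and Igf2bp3 are printed because their transcript starts could be placed among the deposited CpGs. RefSeq (GRCm38.p6) gave a promoter for 4 of the 6 genes, and a start was placed where the spacing of the promoter's CpGs matched the spacing of the listed CpGs in the gene's window. The Igf2bp2 start fell at position 22163372 of chr16 and the Igf2bp3 start at position 49164953 of chr6 on mm9, both on the minus strand. All 24 and all 20 CpGs that the files list in those spans coincided with a CpG of the sequence, against 14 and 9 at the next best place. The starts of Lin28b and Hmga2 could not be placed by this rule. Each sequence holds the 250 bases before the start, 5′ to 3′ along the gene, and capitals mark the CpGs that the files list.
Igf2bp2: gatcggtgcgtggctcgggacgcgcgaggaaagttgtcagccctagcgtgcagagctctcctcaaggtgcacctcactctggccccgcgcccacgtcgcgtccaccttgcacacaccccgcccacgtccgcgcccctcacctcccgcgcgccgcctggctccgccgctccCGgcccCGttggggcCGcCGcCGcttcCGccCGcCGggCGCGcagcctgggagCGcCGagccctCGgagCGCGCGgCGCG
Igf2bp3: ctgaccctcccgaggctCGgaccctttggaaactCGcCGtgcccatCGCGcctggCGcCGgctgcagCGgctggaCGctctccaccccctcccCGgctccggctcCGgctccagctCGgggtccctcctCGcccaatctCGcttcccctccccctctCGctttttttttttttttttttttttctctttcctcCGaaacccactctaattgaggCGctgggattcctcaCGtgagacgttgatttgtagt

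The Igf2bp2 sequence has a GC content of 77.2% and 18 of its 40 CpGs are listed, all in the stretch nearest the start, while the Igf2bp3 sequence has 60.4% and 18 of 21. Over these CpGs the Igf2bp2 promoter was methylated at 0% to 12.2% in the 23 bone marrow libraries (median 7.58%), against 1.02% and 8.33% in the fetal libraries. The Igf2bp3 promoter was methylated at 0% to 8.20% in the 22 bone marrow libraries with at least 50 reads (median 1.58%), against 0 of 316 and 0 of 254 reads in the fetal libraries. Both promoters were thus lowly methylated in every group. Fetal and bone marrow values overlapped at Igf2bp2, and at Igf2bp3 the lowest bone marrow value equalled the fetal ones. At Igf2bp2, fetal library 1 and the 3 libraries of 0 doses, with 6 CpGs each, stood at 1.02%, 0%, 0% and 1.67%. All other libraries, with 8 or more CpGs, stood at 5.05% or more. The spread at Igf2bp2 thus cannot be told apart from which CpGs were covered.

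Series-wide values bear on low levels. Libraries held 22835325 to 105187091 reads, and the median depth per CpG was 10 to 54 reads. Dense tiles are 1000-base tiles in which at least 15 CpGs had 5 or more reads in all 25 libraries, and 7576 of them outside the 6 windows were below 20%. The median level over these tiles was 0.202% to 0.434% in the 11 transplanted libraries, 0.709% to 1.11% in the libraries of 0 doses, 0.154% to 0.387% in the 5 libraries of 2 or 4 doses, 1.46% to 1.82% in old, 1.01% to 1.21% in young and 0.224% to 0.372% in fetal libraries. Old, young and 0-dose libraries thus had a higher general level of low methylation than fetal ones, and its part in the differences below was not tested.

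Most CpGs of the 6 genes were lowly methylated: of the CpGs covered in all 25 libraries, 97.0% in Lin28b, 86.7% in Hmga2, 79.6% in Igf2bp1, 91.3% in Igf2bp2, 83.9% in Igf2bp3 and 94.8% in Sox17 averaged under 10%. The level of a window is the mean over those CpGs, and its spread is the SD over libraries, with no SD for groups of 1 library. Lin28b, Igf2bp1 and Sox17 were lowest in fetal cells, whereas fetal cells lay among the bone marrow groups for Hmga2, Igf2bp2 and Igf2bp3.

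**Figure D1:**
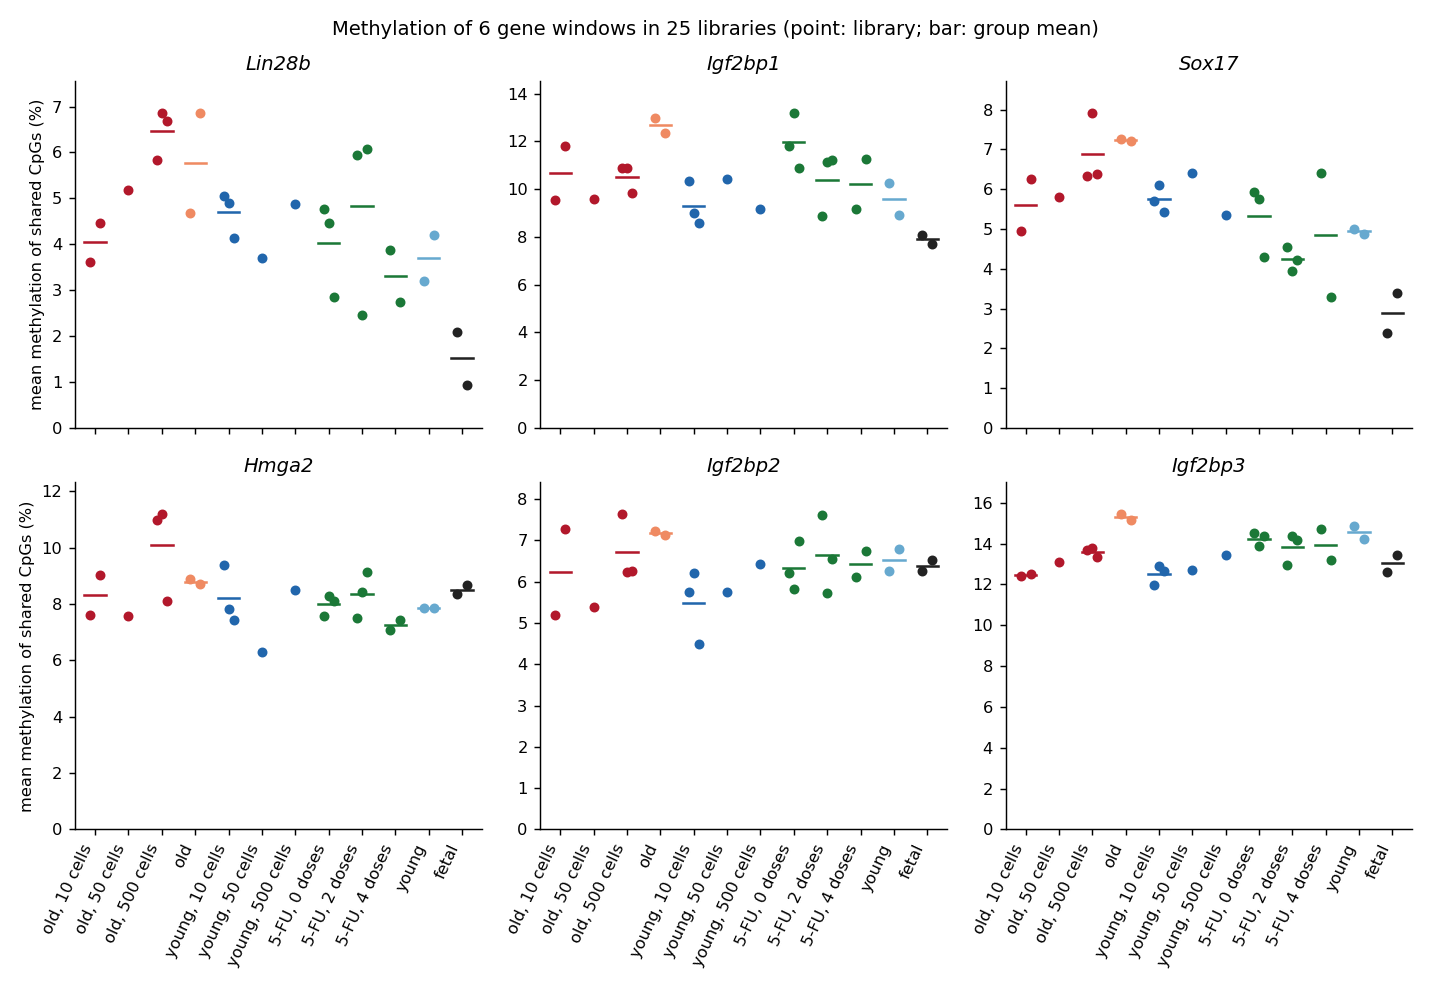
Methylation level of the 6 gene windows (percent, mean over CpGs with 5 or more reads in all 25 libraries) in each of the 12 groups. Points are libraries and bars are group means; the 2 fetal libraries lie at the bottom for Lin28b, Igf2bp1 and Sox17, at 1.52%, 7.90% and 2.89% on average, and within the bone marrow range for the other genes.

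For Lin28b, the let-7 blocker, the 23 bone marrow libraries stood at 2.45% to 6.87% (median 4.69%), against 0.932% and 2.10% in the 2 fetal libraries. After transplantation of 10, 50 and 500 old cells Lin28b averaged 4.05% ± 0.594, 5.18% and 6.46% ± 0.540, against 5.78% ± 1.54 in old cells. After 10, 50 and 500 young cells it averaged 4.70% ± 0.489, 3.70% and 4.88%, against 3.71% ± 0.712 in young cells. All bone marrow libraries were above both fetal libraries. The levels after 0, 2 and 4 doses of 5-FU were 4.02% ± 1.03, 4.82% ± 2.05 and 3.31% ± 0.808, and the fetal mean was 1.52% ± 0.825. Ordered from low to high, 9 of 11 neighbouring groups overlapped. The exceptions were 4 doses over fetal cells and 50 transplanted old cells over 500 young cells. The latter 2 groups hold 1 library each and cannot overlap.

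In Igf2bp1, the bone marrow libraries ranged over 8.58% to 13.2% (median 10.4%), all above the fetal libraries at 7.71% and 8.08%. Its level was 10.7% ± 1.59, 9.60% and 10.5% ± 0.592 after 10, 50 and 500 old cells, against 12.7% ± 0.448 in old cells. With 10, 50 and 500 young cells it was 9.31% ± 0.922, 10.4% and 9.15%, against 9.58% ± 0.966 in young cells. Old cells were the highest group and fetal cells the lowest, and the gap above the fetal libraries was the only one between neighbouring groups. Doses of 0, 2 and 4 gave 12% ± 1.17, 10.4% ± 1.33 and 10.2% ± 1.48, against the fetal 7.90% ± 0.266.

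Sox17, the factor needed by fetal HSCs, ranged over 3.29% to 7.93% in bone marrow (median 5.76%), and 22 of 23 libraries were above both fetal libraries (2.39% and 3.40%). After 10, 50 and 500 old cells Sox17 averaged 5.60% ± 0.920, 5.82% and 6.88% ± 0.908, against 7.24% ± 0.0385 in old cells. After 10, 50 and 500 young cells the averages were 5.75% ± 0.343, 6.41% and 5.35%, against 4.94% ± 0.0865 in young cells. Old cells were highest and fetal cells lowest, and 9 of 11 neighbouring groups overlapped. The exceptions were 2 doses over fetal cells and 50 young over 50 old cells, the latter with 1 library each. Over 0, 2 and 4 doses Sox17 stood at 5.32% ± 0.897, 4.24% ± 0.298 and 4.86% ± 2.21, and fetal cells averaged 2.89% ± 0.714.

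Hmga2 showed no such order: 7 of 23 bone marrow libraries were above both fetal libraries. Its averages were 8.32% ± 1.01, 7.58% and 10.1% ± 1.73 after 10, 50 and 500 old cells, against 8.80% ± 0.115 in old cells. They were 8.22% ± 1.03, 6.30% and 8.49% after 10, 50 and 500 young cells, and 7.98% ± 0.374, 8.35% ± 0.820 and 7.26% ± 0.236 after 0, 2 and 4 doses, against 7.85% ± 0.0135 in young and 8.52% ± 0.222 in fetal cells. The window joins regions that differ in opposite directions, as its tiles show below.

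For Igf2bp2, all 11 pairs of neighbouring groups overlapped. The averages were 6.23% ± 1.47, 5.39% and 6.71% ± 0.808 after 10, 50 and 500 old cells, against 7.18% ± 0.0757 in old cells. They were 5.48% ± 0.895, 5.76% and 6.43% after 10, 50 and 500 young cells, and 6.34% ± 0.595, 6.64% ± 0.947 and 6.43% ± 0.454 after 0, 2 and 4 doses, against 6.52% ± 0.379 in young and 6.39% ± 0.197 in fetal cells. Igf2bp3 was instead lower after transplantation, at 12% to 13.8% (median 12.9%) in 11 transplanted libraries against 12.9% to 15.5% (median 14.4%) in the 12 other bone marrow libraries. It averaged 12.5% ± 0.0572, 13.1% and 13.6% ± 0.235 after 10, 50 and 500 old cells, against 15.3% ± 0.205 in old cells, and 12.5% ± 0.493, 12.7% and 13.4% after 10, 50 and 500 young cells, against 14.6% ± 0.444 in young cells. Doses of 0, 2 and 4 gave 14.3% ± 0.346, 13.8% ± 0.779 and 14.0% ± 1.08, and fetal cells averaged 13% ± 0.598. Old cells did not overlap with the next group below in Igf2bp3.

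The 6 windows held 12 CpG-dense tiles, none above 10.1% in any library. In 6 of the 12 all 23 bone marrow libraries were above both fetal libraries (50%), which held for 4.71% of the 7576 other dense tiles below 20%. Over only the 16 libraries of 2 or 4 doses and of transplanted cells, whose median level over the other tiles was like that of fetal cells, it again held for 6 of 12, against 5.79% of the others. The mean over the other tiles was 1.16% to 1.86% in these libraries, against 0.780% to 0.870% in fetal ones. Of these 6 tiles, 3 lie side by side in Igf2bp1, 1 in Lin28b, 1 in Sox17 and 1 in Hmga2. Both this count and the rule behind it were chosen after values were seen.

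The Igf2bp1 tile at chr11:95866001-95867000, with 27 shared CpGs and 588 to 2744 reads per library, was methylated at several percent in most bone marrow libraries and almost unmethylated in fetal ones. It stood at 6.16% and 8.17% after 10, 7.42% after 50, and 8.74%, 6.40% and 6.38% after 500 old cells, against 7.69% and 9.73% in old cells. After 10 young cells it stood at 8.78%, 7.81% and 7.14%, after 50 at 6.53% and after 500 at 6.52%, against 5.59% and 3.72% in young cells. Every library but 1 of these groups and of the 5-FU groups lay above 3%. The libraries of 0 doses had 5.52%, 8.37% and 6.81%, those of 2 doses 0.852%, 4.95% and 5.85% and those of 4 doses 3.74% and 6.91%, against 0.249% and 0% in fetal cells. The next tile, chr11:95867001-95868000, spanned 0.881% to 10.1% in bone marrow (median 6.03%), against 0.248% and 0.535% in fetal cells. The one after it, chr11:95868001-95869000, spanned 0.898% to 3.75% (median 2.10%), against 0.504% and 0.115%. Neither overlapped between bone marrow and fetal libraries.

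**Figure D2:**
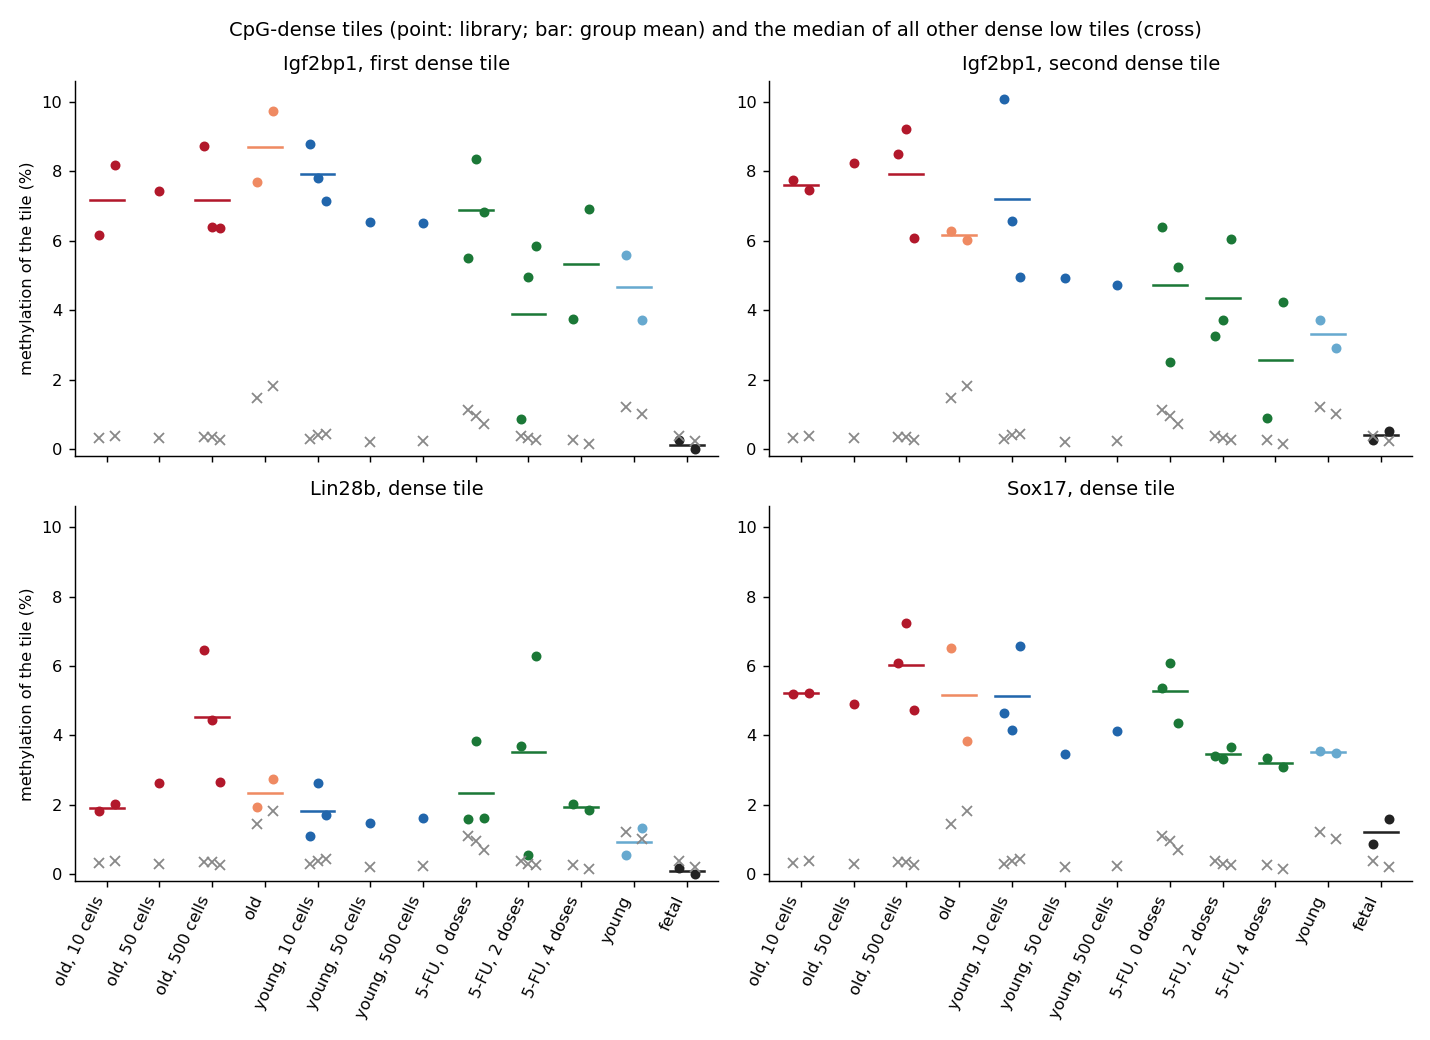
Methylation level (percent) by library of 2 Igf2bp1 dense tiles, 1 Lin28b tile and 1 Sox17 tile, with the median of all other dense tiles below 20% in the same library as a grey cross. Bone marrow points lie above the fetal ones, which stand between 0% and 1.59%.

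Tests used a quasi-binomial model fitted over all tiles with at least 3 CpGs covered in every library of the fit, and a tile counted as changed at a Benjamini-Hochberg adjusted p under 0.05 and a difference of at least 10 percentage points. Fits rest on the CpGs covered in their own libraries, so a tile's level differs between fits and from the levels given by library, in sparse tiles by several points. In that model, the first Igf2bp1 dense tile averaged 4.10% ± 0.821 in young and 0.143% ± 0.0855 in fetal cells (n = 2 each), a difference of 3.95 points (SE 1.33, adjusted p = 0.100). Among dense tiles below 20%, 2.25% of 12469 differed by as much or more in that direction. In comparisons added after values were seen, 10 transplanted young cells (7.04%, n = 3) exceeded fetal cells (0.138%) by 6.90 points (SE 1.76, adjusted p = 0.0191). The differences from fetal cells were 5.95 points for 10 old cells (adjusted p = 0.0497) and 6.14 points for 500 old cells (adjusted p = 0.0504). None reached the 10 points of a call, and all share the 2 fetal libraries. The second Igf2bp1 tile differed from fetal cells by 6.03, 6.44 and 6.73 points after 10 young, 10 old and 500 old cells (adjusted p = 0.0355, 0.0539 and 0.0534).

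A few single CpGs stood above the rest of these tiles. At position 95866495 of chr11, 382 of 1335 bone marrow reads were methylated (28.6%), against 0 of 153 fetal reads, which allows a level of up to 1.96%. The reads pooled by group were methylated at 32.5% in transplanted, 28.0% in 5-FU, 27.1% in old and 19% in young cells. The levels of bone marrow libraries ran from 0% (0 of 36 reads, in library 2 of 4 doses) over a median of 29.6% to 43.9%, and 22 of 23 had a methylated read. At position 95866830, 304 of 1249 bone marrow reads were methylated (24.3%), against 0 of 142 fetal reads (up to 2.11%). At position 95867854, it was 378 of 2278 (16.6%) against 0 of 227 (up to 1.32%), and at position 95867722 it was 280 of 1526 (18.3%) against 1 of 158. In library 2 of 4 doses, 15 of 15 reads were methylated at position 95866830. These fetal limits cover counting error only, reads without molecular identifiers are not independent molecules, and CpGs that lie close together share reads.

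Such CpGs were rare elsewhere. By a rule set after values were seen, CpGs of dense tiles below 20% with 0 methylated of at least 100 fetal reads were taken, and those with a bone marrow mean of at least 10% were counted. They were 6 of 30 in Igf2bp1 (20%), 0 in the other 5 genes, 6 of 105 over the 6 genes (5.71%) and 82 of 60967 elsewhere (0.134%). Among the Igf2bp1 CpGs, position 95866824 had 10 of 15 reads methylated in library 2 of 4 doses. Position 95867007 had 24 of 40 in library 1 of 10 young cells. The means of these positions passed 10% only with those libraries included. The same was not checked for the CpGs elsewhere. In the first Igf2bp1 dense tile all 27 CpGs were higher in bone marrow than in fetal cells, 24 of them had no methylated fetal read, 9 averaged at least 5% and 4 at least 10% in bone marrow. The methylation was thus spread over the tile with a few CpGs far above the rest.

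**Figure D3:**
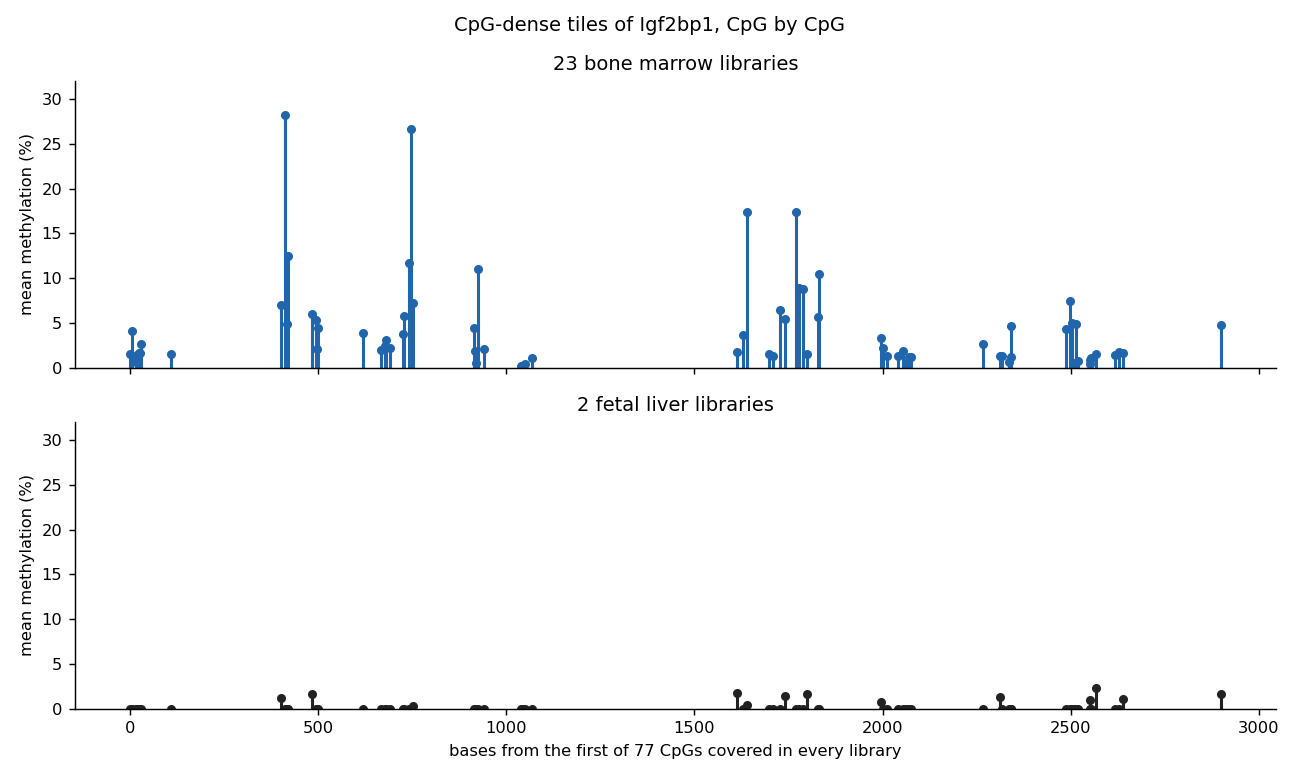
Mean methylation (percent) of each of the 77 CpGs of the 3 Igf2bp1 dense tiles, in the 23 bone marrow libraries (top) and in the 2 fetal libraries (bottom), against the distance in bases from the first CpG. The 2 highest CpGs, at 28.2% and 26.7% in bone marrow, are at 0% in fetal cells, and the third, at 17.4%, is at 0.435% in fetal cells.

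The Lin28b tile at chr10:45205001-45206000 (18 CpGs) showed the same order at lower levels, 0.547% to 6.45% in bone marrow (median 1.93%), against 0.175% and 0% in fetal cells. The 3 libraries of 500 old cells stood at 6.45%, 4.45% and 2.67%, against 1.93% and 2.75% in old cells, and young cells at 0.547% and 1.32%. Young exceeded fetal cells by 0.977 points (adjusted p = 0.599), and 500 old cells exceeded fetal cells by 5.09 points (adjusted p = 0.0762). No test of this tile passed, and it was also the Lin28b tile with the widest range of group means.

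The Sox17 tile at chr1:4483001-4484000 (22 CpGs) spanned 3.08% to 7.23% in bone marrow (median 4.37%), against 0.878% and 1.59% in fetal cells. Young exceeded fetal cells there by 2.34 points (adjusted p = 0.536). A CpG at position 4483748 averaged 24.6% in bone marrow, while 1 of 54 fetal reads was methylated. The widest range of group means in Sox17 was at chr1:4487001-4488000 (14 CpGs), with 5.95% and 7.97% in old, 3.69% and 4.22% in young, and 0.881% and 2.38% in fetal cells. The lowest group there was 4 doses, at 2.07% and 0.551%. Libraries of 0 doses (3.13%, 1.83% and 1.23%) also overlapped the fetal ones, and those of 2 doses stood at 3.48%, 2.48% and 3.25%. The Hmga2 tile at chr10:119913001-119914000 (27 CpGs) spanned 0.390% to 4.02% (median 1.64%), against 0.311% and 0.139%. All of these stayed under 10%.

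The 3 dense tiles of Igf2bp2, which include the tile of its start, and that of the Igf2bp3 start had bone marrow libraries that overlapped the fetal ones, 22 of 23 being above both fetal libraries in each Igf2bp2 tile and 19 at Igf2bp3. At the start tiles, young exceeded fetal cells by 0.906 points for Igf2bp2 (adjusted p = 0.732) and by 1.29 points for Igf2bp3 (adjusted p = 0.631). Another dense Igf2bp3 tile, chr6:49165001-49166000, differed by 4.51 points between young and fetal cells (adjusted p = 0.139), and 1.63% of dense tiles below 20% differed by as much or more. In all 16 tested tiles of the windows with 15 or more CpGs young exceeded fetal cells (median 1.27 points), as it did in 12647 of the 16020 such tiles of the whole table (median 0.65 points). The direction was common to most CpG-dense tiles.

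Hmga2 held the only changed tile between young and fetal cells, and it was lower in young cells: 1 of 41 member tiles, while 3.88% of 100896 tiles changed and 2.67% were lower. At chr10:119865001-119866000 the level was 4.19% and 14.6% in young cells, against 60.7% and 54.5% in fetal cells (4 CpGs). The difference was -48.3 points (SE 5.55, adjusted p = 0.000251). In simulated reads for this comparison 24% of tiles changed by 20 points and 80% of those changed by 30 points were recovered. These changes were placed only in tiles of intermediate methylation, where smaller differences may not be detectable at this depth. Recovery in tiles of low or high methylation, as most member tiles are, was not simulated. Old cells stood at 10.2% and 5.19%. The 22 bone marrow libraries with at least 10 reads there ranged from 1.59% to 25.5%, all below both fetal libraries; library 2 of 4 doses had 3 reads. Young, old, treated and transplanted libraries overlapped with each other in this range.

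Over single CpGs of that tile, 5 CpGs lay 377 to 570 bases from the first. Pooled reads of these CpGs, in order, were methylated at 10.5%, 9.14%, 10.1%, 12% and 6.69% in transplanted and at 12.5%, 6.82%, 11.8%, 14.2% and 12.7% in young cells. They were methylated at 81.8%, 41.8%, 56.1%, 77.6% and 60% in fetal cells. The 2 CpGs at 0 and 170 bases stood at 88.4% and 50.6% in transplanted and 95% and 66.7% in young cells, against 100% (5 reads) and 90% (10 reads) in fetal cells. The second of these was thus also lower in transplanted and young cells, on few fetal reads.

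**Figure D4:**
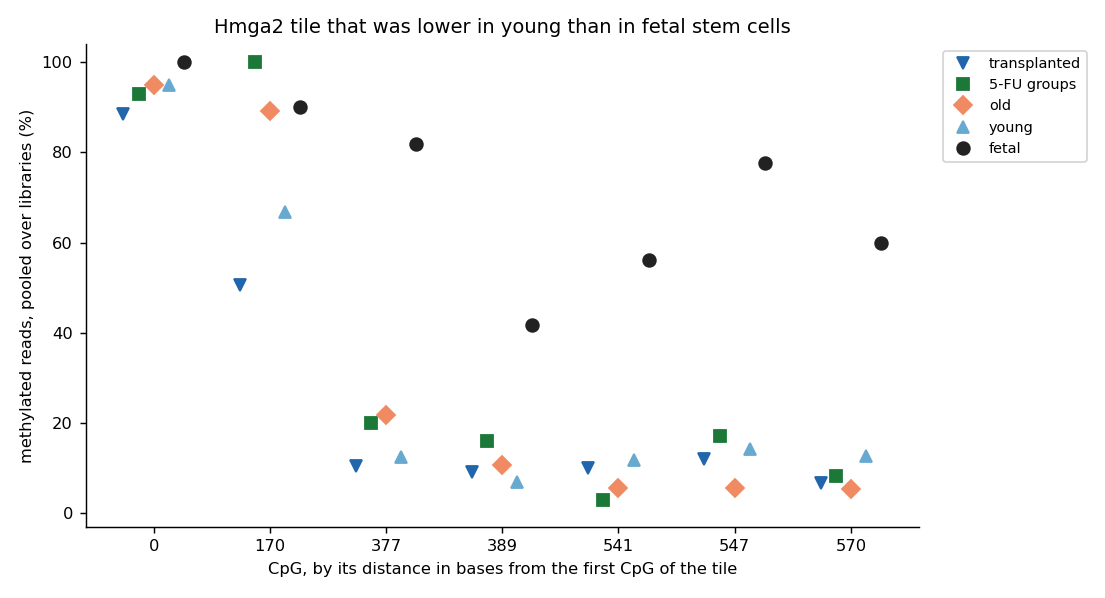
Pooled methylation (percent of reads) at the 7 CpGs of the changed Hmga2 tile against distance in bases from the first CpG, for transplanted, 5-FU, old, young and fetal cells. The first 2 CpGs lie at or above 50.6% in every group, and the last 5 lie at or below 21.8% in the bone marrow groups, against 41.8% to 81.8% in fetal cells.

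Other sparse tiles had higher fetal levels that did not pass the test. Of the member tiles, 27 kept at least 3 CpGs covered in all 25 libraries. Over those shared CpGs none was lower than both fetal libraries in all 23 bone marrow libraries (0%), as 1.47% of 53767 other tiles were. In a neighbouring Hmga2 tile, chr10:119859001-119860000, the young libraries stood at 55.7% and 51.2%, against 64.5% and 75.6% in the fetal ones over 3 CpGs (adjusted p = 0.288 in the fit, over 5 CpGs). Over the 3 CpGs, 22 of 23 bone marrow libraries were below both fetal libraries. An Igf2bp2 tile, chr16:22119001-22120000 (5 CpGs), had 7.06% and 12.5% in young cells, against 26.5% and 30.9% in fetal cells. Over these 5 CpGs all 23 bone marrow libraries, at 1.52% to 23.4%, were below both fetal libraries. Over its 3 shared CpGs, 22 of 23 were. The fit, over 3 of its CpGs, averaged 9.05% in young and 22.6% in fetal cells (adjusted p = 0.102). It was the Igf2bp2 tile with the widest range of group means, and lower still after 10 young cells, at 1.79%, 4.32% and 1.52%.

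Against fetal cells, in the comparisons added after values were seen, 6 of 40 member tiles changed after 10 young cells (15.2% of all tiles, 13.6% lower), 4 after 10 old cells (8.31%, 6.92% lower) and 3 after 500 old cells (4.53%, 3.07% lower), all of the member tiles being lower. The first Hmga2 tile averaged 10.2%, 3.70% and 10.4%, against 57.6% in fetal cells (adjusted p = 0.000119, 0.000123 and 0.000134). The second Hmga2 tile averaged 31.3%, 29.7% and 39.2%, against 70.0%, and the Igf2bp2 tile 1.39%, 4.82% and 5.59%, against 22.6%. These 3 tiles changed in all 3 comparisons. An Igf2bp2 tile at chr16:22100001-22101000 averaged 56.1% after 10 young and 54.7% after 10 old cells, against 88.4% in fetal cells. An Igf2bp1 tile at chr11:95852001-95853000 averaged 12.4% after 10 young cells, against 33.9% in fetal cells (adjusted p = 0.00734). The share of member tiles was near that of all tiles. Leaving out 1 library of 10 old or of fetal cells gave 1 to 2 changed tiles after 10 old cells, and without fetal library 2 the count after 500 old cells was 1.

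That Igf2bp1 tile had the widest range of group means in its gene (18 CpGs). It stood at 38.8%, 53.1% and 29.3% after 0 doses, against 24.3% and 23.2% in young cells, and at 15.7%, 12.4% and 12.6% after 10 young cells. The 0-dose libraries lay above the young ones and these above the libraries of 10 young cells, with no overlap. Over these CpGs it averaged 40.4% ± 11.9 after 0 doses and 23.8% ± 0.749 in young cells. The 5-FU fit used only 7 CpGs of the tile, at 48.0% and 20.6%, a difference of 27.4 points (SE 8.28, adjusted p = 0.746).

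With age, the windows of all 6 genes averaged higher in old than in young cells, by the values given above. Old and young libraries (n = 2 each) did not overlap in any of the 6 windows. How often windows elsewhere did the same was not measured, so this cannot be called particular to these genes. No member tile changed, of 41 tested, while 1.82% of all tiles did. By limma the count was also 0, and 3 member tiles had an unadjusted p under 0.05. Old exceeded young cells in 36 of the 41 tiles (median 1.92 points), as in 76940 of 100896 tiles of the whole table (median 1.54 points). In the 16 tiles with 15 or more CpGs the median difference was 1.18 points, against a median of 0.73 points in all 16020 such tiles. The general low level was also higher in old than in young libraries, as given above, and its part in these values was not tested.

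After 5-FU, no member tile changed, of 27 tested in each of 3 comparisons. This held for 2 and for 4 doses against 0 doses, and for 0 doses, which add only the 6 months, against young cells. The shares of all tiles that changed were 0.00175%, 0% and 0%. Recovery of changed tiles was not simulated for this fit, which called almost no tile anywhere. A count of 0 thus does not show that levels were unchanged. Unadjusted p-values under 0.05 were found for 1, 3 and 1 member tiles, and limma called 0 in each. The Igf2bp1 dense tile averaged 6.90% ± 1.43 after 0, 3.88% ± 2.66 after 2 and 5.33% ± 2.24 after 4 doses, against 4.65% ± 1.33 in young cells. These ranges overlapped.

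After transplantation, all changed member tiles were lower and had fewer than 15 CpGs. The dense tiles stood at 9.73% or less in old and young libraries, so none of them could be called lower by 10 points. In 10 young cells against young cells 4 of 39 tiles changed, and 13.3% of all tiles did (12.6% lower). In 10 old cells against old cells 5 of 39 changed, and 18.5% of all tiles did (18.1% lower). In 500 old cells against old cells 2 of 39 changed, and 5.21% of all tiles did (4.94% lower). These shares lay near those of the whole table, or below them. Tiles outside the windows with 3 or more CpGs but fewer than 15, at 80% or more, had a median level of 84.3% to 84.6% after 10 old, 87.1% to 88.8% after 500 old and 83.8% to 85.9% after 10 young cells. The same tiles stood at 93.1% in both old libraries and at 90.8% and 92.3% in the young ones. Lower methylation of such tiles was thus a feature of the libraries as a whole, and its part in the changes of the 6 genes was not tested.

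The Igf2bp3 tile at chr6:49099001-49100000 (3 CpGs) changed in all 3 comparisons. It stood at 78.9% and 79.8% after 10 old cells and 88.7%, 78.8% and 84.3% after 500 old cells, against 96.6% and 98.0% in old cells (adjusted p = 0.0152 and 0.0466). It stood at 82.7%, 85.8% and 77.1% after 10 young cells, against 94.1% and 93.7% in young cells (adjusted p = 0.0395). No transplanted library of these groups reached the level of its untransplanted age group. Lower levels were not limited to transplanted cells. Libraries of 0 doses (91.4%, 86.1% and 84.5%) and of 2 doses (90.7%, 85.9% and 86.8%) also lay below both young libraries. Those of 4 doses stood at 92.7% and 99.3%. The tile at chr6:49099001-49100000 was also the Igf2bp3 tile with the widest range of group means.

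The Hmga2 tile at chr10:119859001-119860000 had 32.8% and 26.7% after 10 old cells, against 62.9% and 54.8% in old cells (adjusted p = 0.0150). After 10 young cells it had 35.6%, 31.3% and 27.0%, against 55.7% and 51.2% in young cells (adjusted p = 0.0236). Levels after 500 old cells were 34.6%, 39.8% and 43.1% (adjusted p = 0.0563), also apart from those of old cells. Libraries of 2 doses, at 26.7%, 35.4% and 49.1%, lay below both young libraries and overlapped those of 10 young cells. Those of 0 doses (42.6%, 52.8% and 42.2%) and of 4 doses (40.6% and 78.9%) overlapped the young libraries. The Igf2bp1 tile at chr11:95835001-95836000 (6 CpGs) had 85.9% and 79.2% after 10 old cells, against 94.3% and 94.5% in old cells (adjusted p = 0.0457). It had 81.1%, 87.4% and 76.9% after 10 young cells, against 92.9% and 95.3% in young cells (adjusted p = 0.0332). Both tiles changed with 10 cells of either age.

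Of the remaining changed tiles, Hmga2 at chr10:119847001-119848000 averaged 82.8% ± 6.97 after 10 young cells (n = 3), against 96.3% ± 1.90 in young cells (n = 2, adjusted p = 0.0268). Hmga2 at chr10:119878001-119879000 averaged 76.2% ± 20.5 after 10 old cells, against 93.9% ± 1.84 in old cells (n = 2 each, adjusted p = 0.0450). Igf2bp1 at chr11:95816001-95817000 averaged 77.6% ± 10.4 after 10 old cells, against 93.8% ± 0.733 in old cells (adjusted p = 0.0179). Igf2bp2 at chr16:22084001-22085000 averaged 68.1% ± 10.2 after 500 old cells, against 90.8% ± 1.60 in old cells (n = 3 and 2, adjusted p = 0.0384). By the test, each of these 4 tiles changed in 1 comparison. The comparisons with old cells share both old libraries. Without either of the 2 untransplanted libraries no member tile changed in any of the 3 comparisons, and without library 3 of 10 young cells the count was 1, a tile that was not among the 4. Without library 1 or 2 of 10 old cells the count against old cells was 1 or 3, and without library 1, 2 or 3 of 500 old cells it was 0, 1 or 0.

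**Figure D5:**
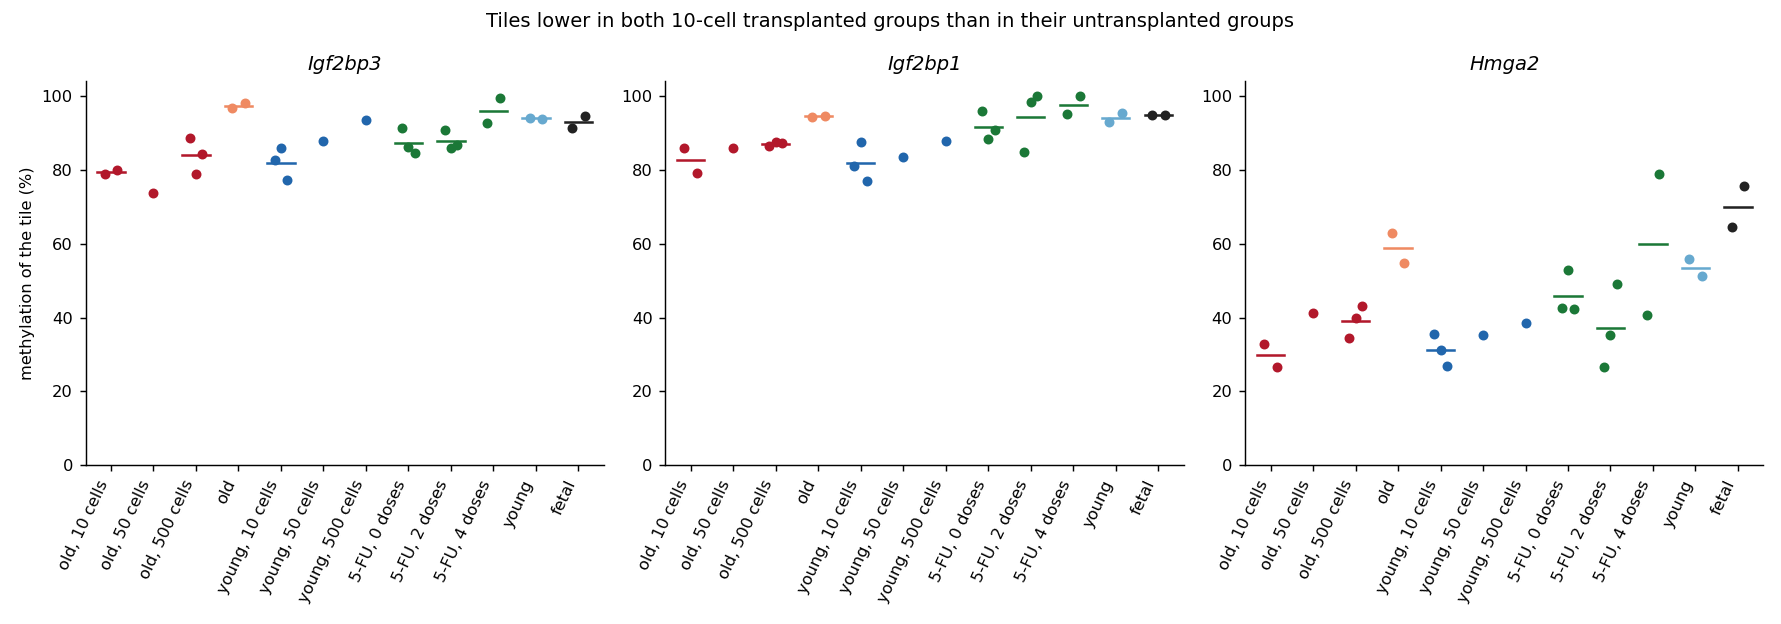
Methylation level (percent) by library of the Igf2bp3, Hmga2 and Igf2bp1 tiles that changed after transplantation of 10 cells of either age. Points are libraries and bars are group means; for Igf2bp3 the libraries of 10 old cells stand at 78.9% and 79.8%, below the old libraries at 96.6% and 98.0%.

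The first Igf2bp1 dense tile did not follow this decrease. It averaged 7.91% ± 0.825 after 10 young cells, against 4.65% ± 1.33 in young cells, and 7.17% ± 1.42 after 10 old cells, against 8.71% ± 1.44 in old cells. All 3 libraries of 10 young cells were above both young libraries, and the libraries of 10 old cells overlapped those of old cells. No member tile with 15 or more CpGs changed in any transplant comparison, and at their low levels the dense tiles could not fall by 10 points.

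Other genes that work with these 6 were read at their transcript starts: partners of the let-7 pathway, relatives of the members and known fetal regulators, 15 genes in all. RefSeq gave a promoter for 11 of them, and 6 starts could be placed, those of Trim71, a let-7 target, Tut4 and Tut7, which add uridines to let-7 precursors that Lin28 proteins hold, Dicer1, which cuts them, Hmga1, the relative of Hmga2, and Igf1r, the receptor of insulin-like growth factors. None of the 6 start tiles changed in any of the 8 comparisons, and none averaged above 5.31% in a group. Only 500 old cells against old cells gave an unadjusted p under 0.05, for 1 of the 6. Low methylation in the groups compared was thus shared by these starts and by those of Igf2bp2 and Igf2bp3.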

How the data were processed

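Per the labels' protocols, RRBS optimised for few cells was used on 25 libraries, which the labels place in 12 groups. Each deposited file lists CpGs with methylated and total reads and a score, which the authors made as the methylated share scaled to whole numbers; the score was not used. The submitters' processing notes name mm9 as the build. No aligner, caller, read filter or treatment of duplicates was stated (not given in the sources used here), and duplicates that were kept would make counting errors too small.

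Methylated and total reads were summed per tile of 1000 bases over CpGs that had 5 reads or more throughout the fit's libraries. A tile needed 3 of them and a place on 1 of the 19 autosomes. A quasi-binomial model with group means was fitted with Williams weights for correlated reads of a library. Its dispersion was moderated across tiles by the empirical Bayes method of limma with a trend on depth, held at 1 or more, and tested by an F test with Benjamini-Hochberg adjustment over all tiles. The 3 fits held fetal, young and old (6 libraries), young and 5-FU (10), and young, old and transplanted (15), with 100896, 57204 and 90382 tiles and 3, 6 and 7 residual degrees of freedom. A fit of fetal, 10 young, 10 old and 500 old cells (10 libraries, 94685 tiles) was added after values were seen. Simulated data with 200 changed tiles, all of intermediate methylation, tested the fits for young against fetal and for 10 young against young cells. The 5-FU fit and the added fit were not tested this way. For 10 young cells against young cells, the model found 37% of the tiles changed by 20 points and 95% of those changed by 30 points. It called 3 false ones among 90382 tiles. The false calls for young against fetal cells were 5 among 100896.

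Named tiles are those of a placed transcript start, at most 3 changed tiles per gene and comparison, and per gene the tile with the widest range of group means among tiles covered in all 25 libraries; dense tiles and single CpGs were added after values were seen. Named tiles outside the dense ones use CpGs with 5 or more reads in at least 20 libraries, except where values of a fit are given. The 6 genes, their windows, the 15 related genes and the tests were chosen with earlier results of these data known. A start was placed when at least 10 CpGs matched and the match was at least 1.4 times the next best. No pair of libraries was identical, and correlations of CpG levels lay between 0.927 and 0.990. Alternatives were a minimum of 10 reads, CpGs over 500 reads left out, 1 fit of all libraries, limma on logit levels, 20 points, a replicate block, shifted tiles and leaving out each library. Analyses used Python 3.11.15, numpy 2.4.6, scipy 1.17.1, pandas 2.3.3, matplotlib 3.10.9, and limma 3.58.1 in R 4.3.3.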

Additional observations from a re-analysis of the deposited data

Results flagged for a closer look

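At 2 neighbouring Igf2bp1 tiles the libraries of 10 transplanted cells moved in opposite directions from their age groups, with no overlap in either over the CpGs of the transplant fit. At chr11:95868001-95869000 the level averaged 3.27% after 10 young cells, against 1.87% in young cells, a difference of 1.4 points. It averaged 3.09% after 10 old cells, against 4.36% in old cells, a difference of -1.27 points. Over the 29 CpGs of this tile shared by all 25 libraries, however, 10 old cells (2.96% and 3.28%) overlapped old cells (3.11% and 3.75%), with averages of 3.12% and 3.43%. At chr11:95869001-95870000 the average was 4.70% after 10 young cells, against 1.75% in young cells (2.95 points), and 2.75% after 10 old cells, against 5.16% in old cells (-2.41 points). The difference between these effects was not tested. The median of other dense tiles was 0.202% to 0.434% in transplanted, 1.46% to 1.82% in old and 1.01% to 1.21% in young libraries, and its part in the pattern was not tested.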

How the results depend on the processing

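The count of changed member tiles between young and fetal cells was 0 at a minimum of 10 reads and 0 in 1 fit of all 25 libraries, where the changed Hmga2 tile was not tested, and 2 with tiles shifted by 500 bases. Without any 1 library it stayed at 1. For old against young cells it was 0 to 1 without 1 library (1 without young library 2). For 10 young against young cells it was 1 at 20 points, 0 in the fit of all libraries and 0 to 4 without 1 library. For 10 old against old cells it was 1 at 20 points, 0 in the fit of all libraries and 0 to 3 without 1 library. For 500 old against old cells it was 1 at 10 reads, 1 at 20 points, 0 in the fit of all libraries, 5 by limma and 0 to 1 without 1 library. Against fetal cells, 10 old cells gave 2 at 10 reads and 1 to 2 without 1 library, 500 old cells 1 to 2 and 10 young cells 4 to 6. The cause of these shifts was not tested, except that fewer CpGs or libraries enter by construction.

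No tile called as changed reversed its direction. The order of the groups by window level was not compared across these settings. Of the counts, 90 kept their value within 1.5 times and 30 did not; of the named tiles, 134 values kept their call and 77 lost it. Of 72 window levels, 53 moved by more than 1 SD between replicates (1 point for groups of 1 library) with 10 reads and 50 with summed reads, and none with deep CpGs left out. They moved by -6.52 to 2.22 points with 10 reads and by -3.82 to 1.79 points with reads summed over CpGs. Replicate numbers did not pair the libraries: deviations of same-numbered libraries correlated between -0.0864 and 0.0373. With the number as a replicate block the counts were 1 for young against fetal, 0 for old against young, 0 for each 5-FU comparison, 4 for 10 young, 7 for 10 old and 2 for 500 old cells. Each comparison rests on 2 or 3 libraries a group and on a median of 10 to 54 reads per CpG, so levels of a few percent at a single CpG of 1 library carry a counting error of similar size.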
